A study of Mus musculus with 15 samples.

Results

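Striatal projection neurons are described here through 9 genes that mark them in the mouse: Drd1, Tac1 and Pdyn of the direct pathway, Drd2, Penk and Adora2a of the indirect pathway, and Ppp1r1b, Pde10a and Rgs9, which both pathways share. The genes were chosen by name, and every probe set that the annotation of the array assigns to one of them alone was taken. These genes and the other gene lists below were chosen with earlier results of these data known. Their shares beside those of all genes are therefore descriptions and no independent test. This gave 16 probe sets for 8 of the 9 genes, out of 18193 genes and 45037 probe sets on the array, and 14 of the 16 passed the filter on brightness and were tested among 27022. No probe set carried the symbol Adora2a, the adenosine receptor gene of the indirect pathway, in the annotation used, and it was not analysed here.

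Total RNA from mouse forebrain was hybridised to Affymetrix mouse genome arrays, 15 in all, in 3 groups of 5. EPO-HI 11 to 15 received erythropoietin at 5 U per g into the peritoneum 1 h before hypoxic ischemia, a combined loss of oxygen and blood flow. VEH-HI 6 to 10 received vehicle 1 h before hypoxic ischemia, and VEH-Sham 1 to 5 received vehicle 1 h before sham surgery. No group had erythropoietin with sham surgery, so the effect of erythropoietin was seen only in injured brains. The labels give no strain, age, sex or time of sampling and leave out whether each sample is a separate animal, so p-values reflect only sample-to-sample spread, part or all of which may be technical. The number of arrays, 5 in each group, limits the precision.

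Medium spiny projection neurons make up most neurons of the striatum and release the inhibitory transmitter GABA. Those of the direct pathway carry the dopamine receptor D1 and the peptides substance P and dynorphin, and project to the substantia nigra and the internal pallidum. Those of the indirect pathway carry the dopamine receptor D2, an adenosine receptor and enkephalin, and project to the external pallidum. Dopamine raises cyclic AMP through the first receptor and lowers it through the second, and the 3 shared genes encode proteins that set how long such signals last.

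Promoter windows, 250 bases before to 50 after an annotated start site, were read from RefSeq on build GRCm38.p6 for 6 of the 8 measured genes (9 windows). Those of 4 genes are printed: the 2 receptor genes that separate the pathways, Tac1, the direct pathway peptide gene that passed after injury, and Pde10a, the gene with the largest difference after injury. Capitals mark a cyclic AMP response element (TGACGTCA), its variant TGCGTCA, an E-box (CACGTG) or a GC box (GGGCGG), searched on both strands. The GC box was added to the search after the other 3 had been looked up.
Tac1, chr6:7554811-7555110, plus strand: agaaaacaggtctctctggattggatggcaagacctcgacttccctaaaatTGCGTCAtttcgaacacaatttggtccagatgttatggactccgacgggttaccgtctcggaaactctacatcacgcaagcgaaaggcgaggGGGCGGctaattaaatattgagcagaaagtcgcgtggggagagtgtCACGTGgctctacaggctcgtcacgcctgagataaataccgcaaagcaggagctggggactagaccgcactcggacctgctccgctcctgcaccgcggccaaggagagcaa
Drd1, chr13:54055609-54055908, minus strand: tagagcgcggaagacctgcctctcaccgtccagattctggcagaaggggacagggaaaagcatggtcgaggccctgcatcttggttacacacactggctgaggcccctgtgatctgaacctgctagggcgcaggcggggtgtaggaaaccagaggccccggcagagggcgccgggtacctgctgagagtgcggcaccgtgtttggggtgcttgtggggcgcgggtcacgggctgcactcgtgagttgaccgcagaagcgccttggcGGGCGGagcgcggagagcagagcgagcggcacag
Drd2, chr9:49340153-49340452, plus strand: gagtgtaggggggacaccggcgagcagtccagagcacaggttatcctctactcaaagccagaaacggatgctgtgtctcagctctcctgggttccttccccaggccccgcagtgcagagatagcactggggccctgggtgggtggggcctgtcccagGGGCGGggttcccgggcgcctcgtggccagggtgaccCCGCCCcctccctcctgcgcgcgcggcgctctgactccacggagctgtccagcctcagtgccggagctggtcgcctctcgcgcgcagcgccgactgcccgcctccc
Pde10a, chr17:8801495-8801794, plus strand: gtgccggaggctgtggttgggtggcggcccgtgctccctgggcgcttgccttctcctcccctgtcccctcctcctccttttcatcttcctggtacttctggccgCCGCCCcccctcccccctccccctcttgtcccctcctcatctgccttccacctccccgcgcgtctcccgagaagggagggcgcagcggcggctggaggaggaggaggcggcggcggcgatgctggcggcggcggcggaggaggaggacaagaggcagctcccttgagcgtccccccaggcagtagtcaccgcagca

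Each sequence runs 5′ to 3′ along the gene's own strand, and no 2 of the marked motifs overlapped. The Tac1 window held the variant TGCGTCA 199 bases before the start site, a GC box 107 bases before it and an E-box 61 bases before it. Among all 32851 promoter windows of this length, 2.12% held TGCGTCA, 7.15% held CACGTG, 35.7% held GGGCGG and 1.79% held the full element TGACGTCA. The Drd1 window printed held a GC box 17 bases after the start site, Drd2 held 2 (93 and 56 bases before it) and Pde10a held 1 (146 bases before it). The windows of Drd1, Drd2, Pde10a, Pdyn and Rgs9 held no copy of the first 3 motifs, and those of Pdyn held none of the 4. These matches are descriptions of letters in a window and do not show that a factor binds there.

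The 15 arrays formed 2 sets that the labels do not record, and this touches every comparison with sham surgery. VEH-Sham 1 to 4 had median intensities of 55.4 to 58.0 (set A), whereas VEH-Sham 5 and the 10 hypoxic ischemia arrays had medians of 39.3 to 44.5 (set B). VEH-Sham 5 lay below each of VEH-Sham 1 to 4 in 32.1% of all genes. Differences against VEH-Sham 5 alone are given beside those against all 5 sham arrays, and rest on 1 sham array with no replicate check. EPO-HI and VEH-HI lie wholly in set B. As a measure of RNA integrity, the 3′ to 5′ signal ratio of the Gapdh control was 0.716 to 0.753 in EPO-HI, 0.719 to 0.756 in VEH-HI, 0.634 to 0.719 in VEH-Sham 1 to 4 and 0.732 in VEH-Sham 5.

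Intensities are the authors' linear values in arbitrary units, and levels and differences below are on the scale log2(intensity + 16), which understates the change of dim genes. Each gene is represented by its brightest tested probe set unless another is named. Levels of different probe sets are not compared, because probes differ in brightness for reasons other than RNA amount.

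VEH-HI was compared with VEH-Sham to see what injury changed without erythropoietin. Against all 5 sham arrays, 4 of the 8 genes were lower (limma adjusted p under 0.05) and 0 were higher: Pde10a, Ppp1r1b and Rgs9, the 3 shared genes, and Tac1 of the direct pathway. Among all 13168 genes tested, 11.5% were lower, 11.9% were higher and 23.4% passed in either direction. The median log2 difference was -0.32 over the 8 genes and -0.02 over all genes. Against VEH-Sham 5 alone the median was -0.18 over the 8 genes and 0.00 over all genes, and 7 of the 8 genes lay below 0, as did 49.6% of all genes. With the array set as a block in the model, or with set B alone, where VEH-Sham 5 is the only sham array, 0 of the 8 genes passed, but so few of all probe sets passed (3 of 27022 with the block and 7 with set B alone, all higher) that this count says nothing particular about the 8. With array medians made equal, which moved the median of all probe sets to 0.22, 2 of the 8 passed (Pde10a and Ppp1r1b), the median of the 8 was -0.05 and 4421 genes were higher and 378 lower among all genes. In bulk tissue, fewer projection neurons and less RNA per neuron cannot be told apart. Whether the lower values arose in projection neurons at all was not tested, and neither was the part of other cells. The array set was also not separated from the injury, because VEH-Sham 5 is the only sham array in set B.

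EPO-HI was compared with VEH-HI to ask whether erythropoietin before the injury altered these genes. It gave 0 calls among the 8 genes and 0 among all 27022 probe sets (0.0%, limma with Benjamini-Hochberg adjustment), where 1066 had an unadjusted p under 0.05. The 8 genes lay mostly above 0, 7 of 8 against 48.1% of all genes, with a median log2 difference of 0.23 against -0.01 over all genes. Of the 14 probe sets, 13 lay above 0, against 48.5% of all probe sets. The genes with an unadjusted p under 0.05 were Ppp1r1b, Penk and Pde10a, against 3.52% of all genes. Ppp1r1b was the only one of the 8 whose brightest probe set had all EPO-HI arrays above all VEH-HI arrays, which was true of 0.357% of all genes.

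**Figure D1:**
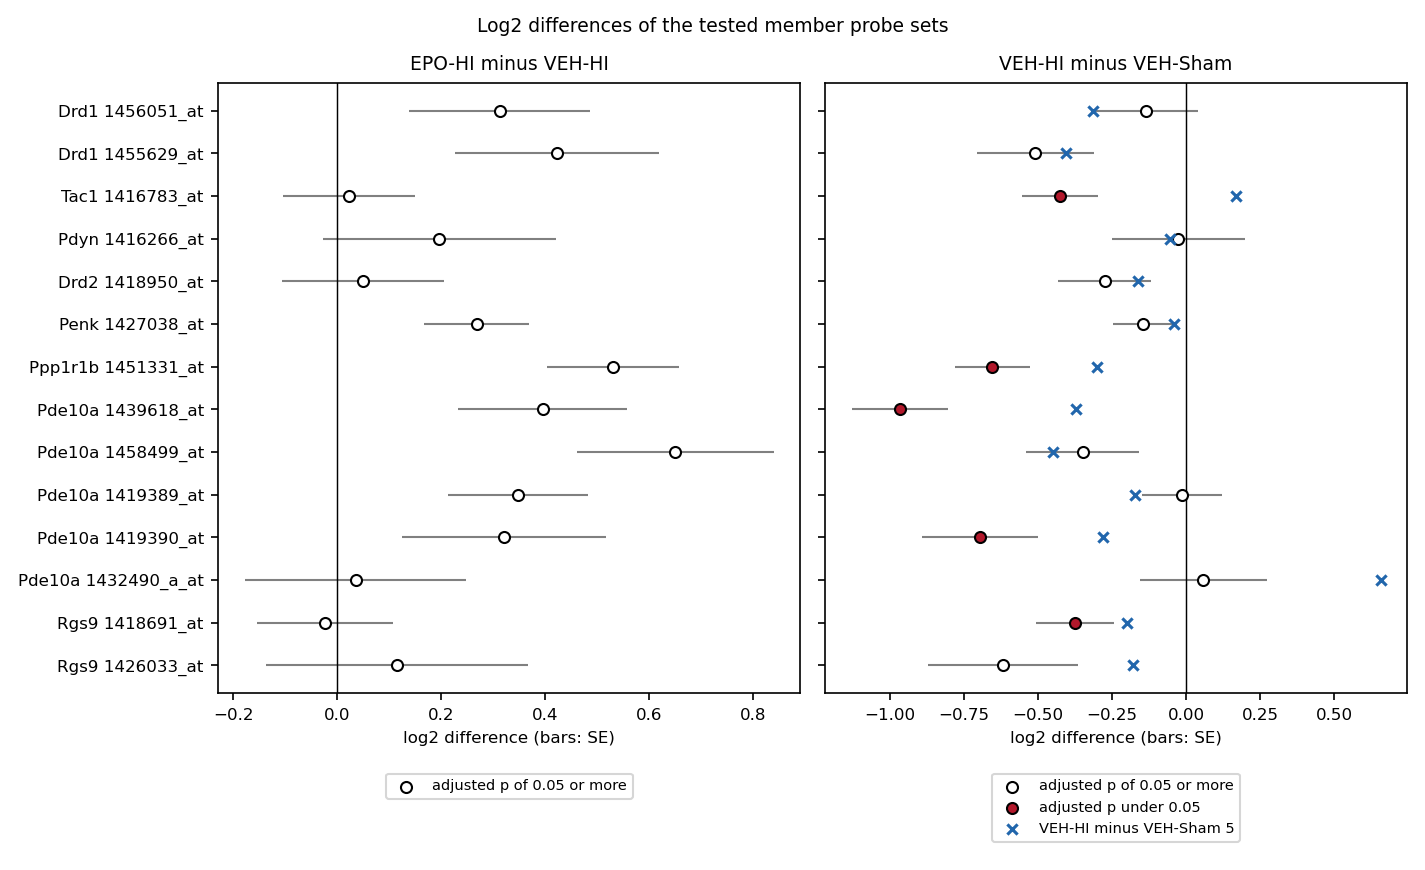
Log2 differences of the 14 tested probe sets, EPO-HI minus VEH-HI on the left and VEH-HI minus VEH-Sham on the right, with points for the fitted difference, bars for the SE and crosses for the difference from VEH-Sham 5 alone. On the left 13 of 14 points lie above 0 and none passed, and on the right 5 of 14 passed below 0 (13.0% of all probe sets did), with the crosses of those 5 all nearer to 0 or, for Tac1, above it at 0.17.

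Drd1 encodes the dopamine receptor D1, which couples to cyclic AMP production in the direct pathway. Its intensity (probe set 1456051_at) was 235, 344, 278, 257 and 203 in EPO-HI 11 to 15 and 111, 221, 229, 239 and 269 in VEH-HI 6 to 10. In VEH-Sham 1 to 4 it was 231, 247, 219.6 and 186, and in VEH-Sham 5 it was 259.7. The 3 groups overlapped, and VEH-HI 6 stood apart below every other array. The log2 difference was 0.31 (SE 0.17, limma adjusted p = 0.9997) in EPO-HI over VEH-HI and -0.13 (SE 0.17, limma adjusted p = 0.606) in VEH-HI over VEH-Sham, or -0.31 against VEH-Sham 5 alone. Without VEH-HI 6 the first was 0.11 and the second 0.07, so that 1 array decided most of the first and the sign of the second. The dimmer Drd1 probe set, 1455629_at, had differences of 0.42 (limma adjusted p = 0.9997) and -0.51 (limma adjusted p = 0.0657, or -0.40 against VEH-Sham 5 alone). Neither probe set passed in either comparison.

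Tac1 encodes the precursor of substance P, the peptide of direct pathway terminals in the substantia nigra. Its intensity (probe set 1416783_at) was 1029, 941, 1058, 862 and 795 in EPO-HI 11 to 15 and 905, 1007, 917, 884 and 879 in VEH-HI 6 to 10. It was 1412, 1222, 1443 and 1428 in VEH-Sham 1 to 4 and 815 in VEH-Sham 5. The arrays of set A stood above all others, while VEH-Sham 5 lay below every VEH-HI array and within the range of EPO-HI. Tac1 was lower in VEH-HI than in VEH-Sham by a log2 difference of -0.43 (SE 0.13, limma adjusted p = 0.0219). The call was lost without VEH-Sham 1, 3 or 4 (limma adjusted p = 0.0615, 0.0648 and 0.0646). Against VEH-Sham 5 alone the difference was 0.17, in the opposite direction. EPO-HI and VEH-HI differed by 0.02 (SE 0.13, limma adjusted p = 0.9997). A second probe set of Tac1, 1431883_at, was too dim to be tested, with 2.58 to 35.8 over all 15 arrays.

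Pdyn encodes prodynorphin, the precursor of the dynorphin peptides that act on kappa opioid receptors. Its probe set, 1416266_at, was dim, with intensities of 44.7, 25.4, 37.4, 40.8 and 31.6 in EPO-HI 11 to 15 and 15.5, 28.8, 22.5, 38.9 and 45.4 in VEH-HI 6 to 10. VEH-Sham 1 to 4 had 34.2, 42.5, 37.0 and 11.7, and VEH-Sham 5 had 30.7. The groups overlapped throughout. The log2 difference was 0.20 (SE 0.22, limma adjusted p = 0.9997) in EPO-HI over VEH-HI and -0.03 (SE 0.22, limma adjusted p = 0.946) in VEH-HI over VEH-Sham, or -0.06 against VEH-Sham 5 alone. The sign of the difference from all 5 sham arrays turned when any of VEH-Sham 1, 2 or 3 or VEH-HI 6 or 8 was left out.

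Drd2 encodes the dopamine receptor D2, which lowers cyclic AMP in the indirect pathway and is also found on dopamine neurons themselves and in the pituitary. Its intensity (probe set 1418950_at) was 42.0, 59.2, 84.1, 43.1 and 57.2 in EPO-HI 11 to 15 and 56.8, 66.2, 50.3, 45.1 and 49.6 in VEH-HI 6 to 10. It was 66.7, 63.3, 78.8 and 69.4 in VEH-Sham 1 to 4 and 61.6 in VEH-Sham 5. The EPO-HI range was wider than the VEH-HI range and held all of it, with EPO-HI 13 the highest of all 15 arrays. Only VEH-HI 7 among the VEH-HI arrays reached the sham range. The log2 difference was 0.05 (SE 0.16, limma adjusted p = 0.9997) in EPO-HI over VEH-HI and -0.27 (SE 0.16, limma adjusted p = 0.204) in VEH-HI over VEH-Sham, or -0.16 against VEH-Sham 5 alone. Without EPO-HI 13 the difference of EPO-HI over VEH-HI was -0.07.

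Penk encodes proenkephalin, the opioid peptide precursor of the indirect pathway. Its intensity (probe set 1427038_at) was 647, 660.4, 544, 575 and 575 in EPO-HI 11 to 15 and 481, 548, 413, 481 and 562 in VEH-HI 6 to 10. It was 655, 571, 540.0 and 480.1 in VEH-Sham 1 to 4 and 509 in VEH-Sham 5. EPO-HI was above VEH-HI apart from an overlap of EPO-HI 13 with VEH-HI 7 and 10. The log2 difference of 0.27 (SE 0.10) in EPO-HI over VEH-HI had an unadjusted p of 0.0147 and did not pass (limma adjusted p = 0.9997). VEH-HI and VEH-Sham differed by -0.14 (SE 0.10, limma adjusted p = 0.307), and by -0.04 against VEH-Sham 5 alone.

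Ppp1r1b encodes DARPP-32, a protein phosphatase 1 inhibitor that relays dopamine signals in projection neurons of both pathways. Its intensity (probe set 1451331_at) was 223, 212, 217, 212 and 171 in EPO-HI 11 to 15 and 120.3, 153, 140.5, 140.3 and 137 in VEH-HI 6 to 10. It was 185, 243, 288 and 261 in VEH-Sham 1 to 4 and 174 in VEH-Sham 5. All VEH-HI arrays lay below all EPO-HI and all VEH-Sham arrays, VEH-Sham 5 included. Ppp1r1b was lower in VEH-HI than in VEH-Sham by a log2 difference of -0.65 (SE 0.13, limma adjusted p = 0.00222), and by -0.30 against VEH-Sham 5 alone. It was 0.53 higher in EPO-HI than in VEH-HI (SE 0.13, unadjusted p = 0.000407), a 1.45-fold difference that did not pass over all probe sets (limma adjusted p = 0.733). The mean levels were 7.80 ± 0.14 in EPO-HI, 7.26 ± 0.11 in VEH-HI and 7.92 ± 0.30 in VEH-Sham (SD, n = 5 each).

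Pde10a encodes phosphodiesterase 10A, which breaks down cyclic AMP and cyclic GMP and is enriched in the striatum. Its brightest probe set, 1439618_at, had intensities of 815, 833, 974, 912 and 712 in EPO-HI 11 to 15 and 467, 812, 681, 666 and 613 in VEH-HI 6 to 10. It had 1607, 1445, 1024 and 1608 in VEH-Sham 1 to 4 and 831 in VEH-Sham 5. VEH-HI lay below VEH-Sham in every array, although VEH-Sham 5 was near the highest VEH-HI array, VEH-HI 7, and inside the EPO-HI range. The log2 difference of -0.97 (SE 0.16, limma adjusted p = 0.00098) in VEH-HI over VEH-Sham, a fold of 0.512, was the largest of the 8 genes. It was -0.37 against VEH-Sham 5 alone. In EPO-HI over VEH-HI the difference was 0.40 (SE 0.16, unadjusted p = 0.0238, limma adjusted p = 0.9997).

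The 5 tested probe sets of Pde10a disagreed on the injury. Besides the brightest, 1419390_at was lower in VEH-HI than in VEH-Sham (-0.70, SE 0.20, limma adjusted p = 0.0166), and at -0.28 against VEH-Sham 5 alone. The other 3 did not pass, at -0.35 for 1458499_at, -0.01 for 1419389_at and 0.06 for 1432490_a_at. Against VEH-Sham 5 alone those 3 were at -0.45, -0.17 and 0.66. In EPO-HI over VEH-HI all 5 lay above 0, at 0.04 to 0.65. The highest was 1458499_at (0.65, SE 0.19, unadjusted p = 0.00248, limma adjusted p = 0.9997), with 148, 132, 191, 189 and 135 in EPO-HI and 77.8, 101, 104, 67.6 and 132 in VEH-HI. The lowest EPO-HI array, at 132.2, was just above the highest VEH-HI array, at 131.9. This probe set and that of Ppp1r1b were the 2 of 14 with no overlap between the injured groups, against 0.429% of all probe sets.

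Rgs9 encodes a regulator that speeds the shutdown of G protein signals, with a striatal form and a retinal form. Its intensity (probe set 1418691_at) was 141, 156, 214, 232 and 155 in EPO-HI 11 to 15 and 178, 180.3, 205, 151 and 187 in VEH-HI 6 to 10. It was 265, 277, 206 and 238 in VEH-Sham 1 to 4 and 209 in VEH-Sham 5. All VEH-HI arrays lay below all VEH-Sham arrays by a narrow margin, with VEH-HI 8 next to VEH-Sham 3, whereas EPO-HI reached into the sham range with 2 arrays. The log2 difference was -0.37 (SE 0.13, limma adjusted p = 0.0453) in VEH-HI over VEH-Sham and -0.20 against VEH-Sham 5 alone. The call was lost when any of VEH-Sham 1, 2 or 4 or VEH-HI 6, 7, 9 or 10 was left out (limma adjusted p up to 0.115). EPO-HI and VEH-HI differed by -0.02 (SE 0.13, limma adjusted p = 0.9997), the only value below 0 among the 8 genes. The dimmer probe set 1426033_at had -0.62 in VEH-HI over VEH-Sham (limma adjusted p = 0.0796, or -0.18 against VEH-Sham 5 alone), and 1439635_at was too dim to be tested, with 3.84 to 44.0 over all arrays.

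In VEH-HI over VEH-Sham, 3 of the 8 genes (Pde10a, Ppp1r1b and Rgs9) had groups that did not overlap, all 3 lower, as did 4.09% of all genes. Leaving out VEH-Sham 1 or VEH-Sham 4 left 2 calls, Pde10a and Ppp1r1b, and these 2 genes passed without any 1 of the 15 arrays. Leaving out 1 array keeps most of set A among the sham arrays, so it cannot separate the injury from the array set. Against VEH-Sham 5 alone the 2 genes were at -0.37 and -0.30.

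**Figure D2:**
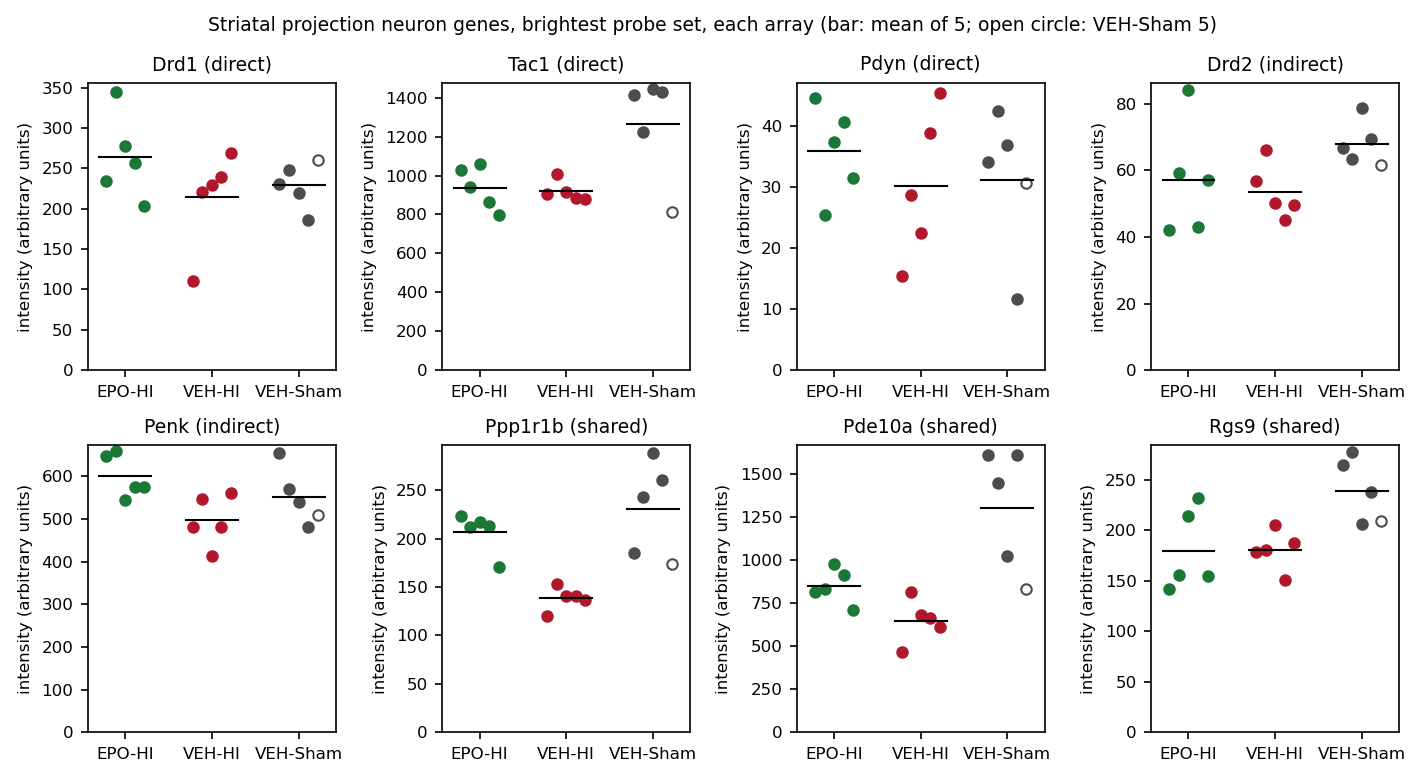
Intensity (linear, arbitrary units) of the brightest probe set of each of the 8 genes in every array, with EPO-HI, VEH-HI and VEH-Sham from left to right, a bar for the mean of 5 and an open circle for VEH-Sham 5. In Ppp1r1b all VEH-HI arrays (120.3 to 153) lie below both other groups, and in Tac1 and Pde10a the open circle (815 and 831) lies far below the other sham arrays.

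EPO-HI and VEH-Sham differ in both treatment and surgery, and this comparison shares its arrays with the other comparisons. Lower in EPO-HI were 3 of the 8 genes, against 9.46% of all genes, and 0 were higher: Pde10a (-0.57, SE 0.16, limma adjusted p = 0.0217), Tac1 (-0.40, SE 0.13, limma adjusted p = 0.0332) and Rgs9 (-0.40, SE 0.13, limma adjusted p = 0.0411). Ppp1r1b did not pass at -0.12 (SE 0.13, limma adjusted p = 0.512). Drd1, Pdyn and Penk lay above 0 at 0.18, 0.17 and 0.12 and Drd2 lay at -0.22, none of which passed. Against VEH-Sham 5 alone Pde10a was at 0.02, Tac1 at 0.19, Rgs9 at -0.22 and Ppp1r1b at 0.23, so that only Rgs9 of these 4 was on the same side of 0 as against the sham mean. Drd1, Pdyn, Penk and Drd2 were at -0.0012, 0.14, 0.23 and -0.11 against that array. With the array set as a block 0 of the 8 genes passed, as against 4 of all 27022 probe sets. With array medians made equal 1 passed, Penk, which was higher at 0.48 (limma adjusted p = 0.0112), but 5353 of 13165 genes were then higher and 335 lower, with a median of 0.32 over all genes. Leaving out VEH-Sham 1, 2 or 4 or EPO-HI 15 left 0 calls, and leaving out EPO-HI 12 left 1.

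The direct and indirect pathways were compared within each array, so that a factor common to all probe sets of an array largely cancels. Effects that depend on brightness do not cancel: quantile normalization moved Drd1 minus Drd2 in VEH-HI over VEH-Sham from 0.14 to -0.08. The array sets need not cancel either, as VEH-Sham 5 minus VEH-Sham 1 to 4 was -0.74 for Tac1 and -0.13 for Penk. For each pair the log2 value of the indirect gene was taken from that of the direct gene, and groups were compared by an exact two-sided permutation test, with p-values adjusted over 3 pairs in 2 comparisons. None of the 6 differences passed. Tac1 minus Penk had the smallest p: its mean was 0.63 ± 0.19 in EPO-HI and 0.87 ± 0.17 in VEH-HI (SD, n = 5 each), a difference of -0.25 (exact p = 0.0873, adjusted p = 0.476). In VEH-HI against VEH-Sham the same pair differed by -0.28 (exact p = 0.159, adjusted p = 0.476), and by 0.21 in the opposite direction against VEH-Sham 5 alone.

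Drd1 minus Drd2, the receptor pair, averaged 1.94 ± 0.35 in EPO-HI, 1.68 ± 0.54 in VEH-HI and 1.54 ± 0.26 in VEH-Sham (SD, n = 5 each). The differences were 0.26 in EPO-HI over VEH-HI (exact p = 0.413, adjusted p = 0.706) and 0.14 in VEH-HI over VEH-Sham (exact p = 0.611, adjusted p = 0.706). Against VEH-Sham 5 alone VEH-HI was at -0.15, in the opposite direction. Pdyn minus Penk, the opioid peptide pair, differed by -0.07 (exact p = 0.706) and 0.12 (exact p = 0.571) in the same comparisons, both with an adjusted p of 0.706, and VEH-HI was at -0.013 against VEH-Sham 5 alone. With 5 arrays against 5 the smallest exact p is 0.00794. A p above the threshold does not show that the pathways moved alike.

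**Figure D3:**
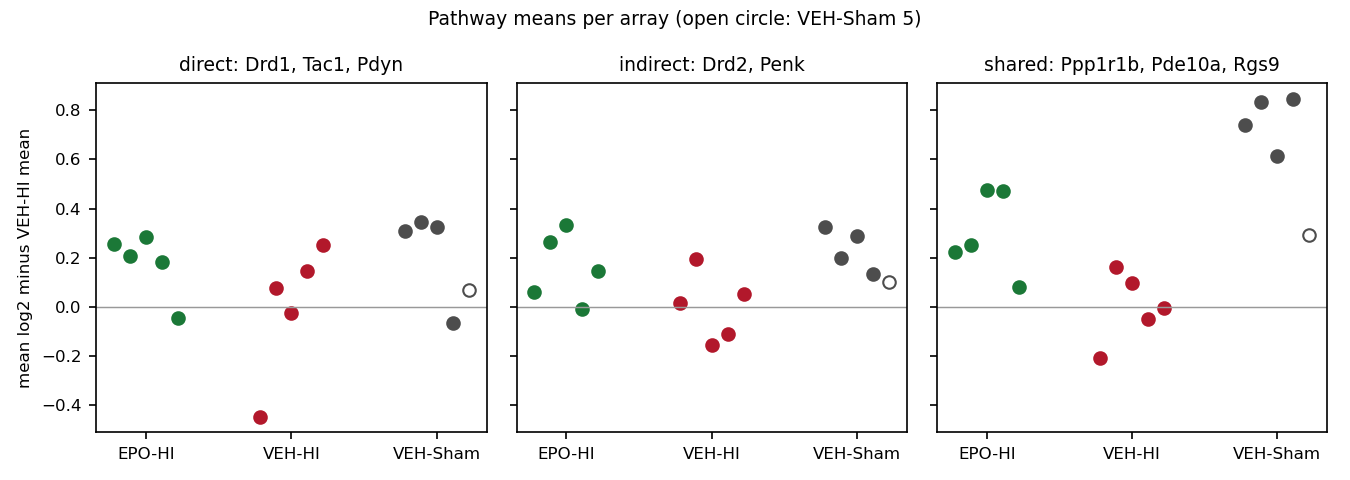
Mean log2 level of the direct, indirect and shared genes in each array, each gene set to 0 at its VEH-HI mean, with EPO-HI, VEH-HI and VEH-Sham from left to right and an open circle for VEH-Sham 5. The shared genes lie at 0.61 to 0.85 in VEH-Sham 1 to 4, against 0.29 in VEH-Sham 5, and the direct and indirect panels overlap between all groups.

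Other genes of striatal projection neurons were taken from a list of 40 names. Not all of them are particular to these neurons within the forebrain, and 31 had a tested probe set. In VEH-HI against VEH-Sham, 11 of the 31 were lower and 0 higher, against 11.5% and 11.9% of all genes. Their median log2 difference was -0.25 against -0.02 over all genes, and the median against VEH-Sham 5 alone was also -0.25. The 4 with the smallest p were Scn4b, a sodium channel subunit gene (-0.99, SE 0.17, limma adjusted p = 0.00122), Spock3, a matrix proteoglycan gene (-0.77, SE 0.15, limma adjusted p = 0.00209), Slc35d3, a transporter-family gene (-0.92, SE 0.19, limma adjusted p = 0.0035), and Ptpn5, which encodes the striatum-enriched phosphatase STEP (-0.51, SE 0.11, limma adjusted p = 0.00399). Against VEH-Sham 5 alone they were at -0.54, -0.27, -0.23 and -0.42. The others that passed were Camk4, Actn2, Kcnip2, Rxrg, Gng7, Hpca and Arpp21. Of the 4 other tested probe sets of Arpp21, only 2 shared its sign. With the array set as a block 0 of the 31 passed, but only 1 of all 13168 genes did. With array medians made equal 3 of the 31 were lower and their median was 0.03, while over all genes 378 of 13165 were lower and the median was 0.27.

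In EPO-HI against VEH-HI, 0 of these 31 genes passed (limma). Above 0 lay 25, against 48.1% of all genes, with a median of 0.14. An unadjusted p under 0.05 was found for 4, against 3.52% of all genes. The 4 were Rgs4, a regulator of G protein signalling (0.23, SE 0.08), Meis2, a homeobox gene (0.37, SE 0.14), Gng7, a G protein gamma subunit gene of D1 receptor signalling (0.32, SE 0.13), and Strip2 (0.33, SE 0.15). Their unadjusted limma p-values were 0.0114 for Rgs4, 0.0158 for Meis2, 0.0248 for Gng7 and 0.0418 for Strip2, all with a limma adjusted p of 0.9997.

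**Figure D4:**
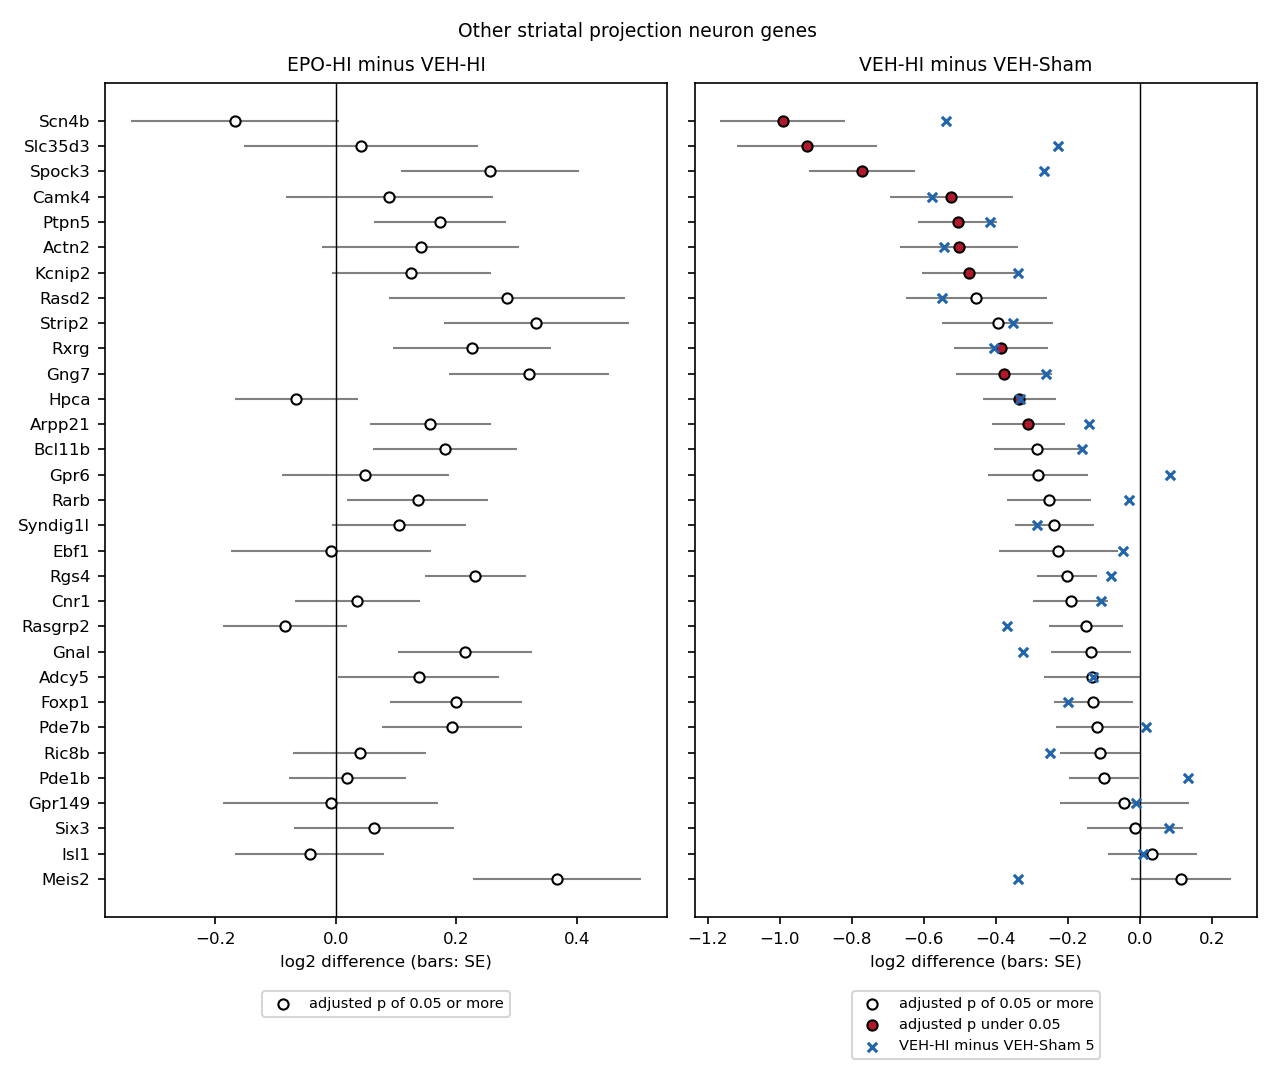
Log2 differences of the 31 other striatal projection neuron genes, EPO-HI minus VEH-HI on the left and VEH-HI minus VEH-Sham on the right, with SE bars, filled points for limma adjusted p under 0.05 and crosses for the difference from VEH-Sham 5 alone. On the left 25 of 31 points lie above 0 (48.1% of all genes did) and none is filled. On the right 29 of 31 lie below 0 (6936 of 13168 genes did) and 11 are filled, where 11.5% of all genes passed lower. The split of 29 below 0 became 12 below and 19 above 0 with array medians made equal, where the median of all genes was 0.27.

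Genes induced by neuronal activity, many of them under dopamine receptor control in the striatum, were taken from a list of 14 names with 11 tested. In VEH-HI against VEH-Sham, 3 were higher and 1 was lower, against 11.9% and 11.5% of all genes. Fos (1.80, SE 0.43, limma adjusted p = 0.00677), Junb (0.83, SE 0.24, limma adjusted p = 0.0205) and Crem (0.41, SE 0.14, limma adjusted p = 0.0371), all transcription factor genes, were higher, and stood at 1.48, 0.89 and 0.31 against VEH-Sham 5 alone. Egr3, a zinc finger transcription factor gene, was lower (-0.79, SE 0.13, limma adjusted p = 0.000915), and at -0.43 against VEH-Sham 5 alone, but its other tested probe set did not share this sign. In EPO-HI against VEH-HI 0 of 11 passed and 0 had an unadjusted p under 0.05. The values nearest to the threshold were 0.24 for Egr3, -0.29 for Nr4a1, an orphan receptor gene, -0.32 for Dusp1, a phosphatase gene, and -0.49 for Fos.

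Markers of other cell types moved with the injury. Of 14 genes of reactive astrocytes and microglia, 13 were higher in VEH-HI than in VEH-Sham, against 11.9% of all genes. Their median log2 difference was 1.28, or 1.20 against VEH-Sham 5 alone. Their summed intensity was 5403 to 9872 in EPO-HI, 6172 to 11890 in VEH-HI and 3208 to 3616 in VEH-Sham. In EPO-HI over VEH-HI all 14 lay below 0 (6837 of 13168 genes did), with a median of -0.22 and 0 passing. Among 10 genes of all neurons 0 passed in VEH-HI against VEH-Sham (median -0.09, or -0.24 against VEH-Sham 5 alone, with 3 at an unadjusted p under 0.05). Their summed intensity was 25150 to 28360 in EPO-HI, 19840 to 29800 in VEH-HI and 25290 to 30390 in VEH-Sham. Their part in the striatal values was not tested.

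Other neuron types were followed by lists of markers, not all of them particular to these types. Of 8 tested genes in the interneuron list 2 were lower in VEH-HI than in VEH-Sham, against 11.5% of all genes: Gad1 (-0.28, limma adjusted p = 0.021) and Gad2 (-0.42, limma adjusted p = 0.0312), both of GABA synthesis. Projection neurons also release GABA, so these 2 genes are not particular to interneurons. Gad1 and Gad2 were at -0.18 and -0.44 against VEH-Sham 5 alone, and the other tested probe set of Gad1 did not share its sign. The other 6 did not pass. Of these the peptide genes Sst and Npy lay above 0 at 0.18 and 0.19 (limma adjusted p = 0.138 and 0.137). Lhx6, Nos1, Pvalb and Vip lay below 0 at -0.34, -0.28, -0.28 and -0.0033 (limma adjusted p = 0.0593, 0.0638, 0.212 and 0.991). Against VEH-Sham 5 alone Sst, Npy and Vip were at 0.099, 0.099 and 0.073, and Lhx6, Nos1 and Pvalb at -0.20, -0.07 and -0.14. Of 8 tested cortical excitatory neuron genes 2 were lower, the glutamate transporter gene Slc17a7 (-0.59, limma adjusted p = 0.0251) and Neurod2 (-0.50, limma adjusted p = 0.0105), at -0.47 and -0.25 against VEH-Sham 5 alone. The 7 tested hypothalamus and pituitary genes, of tissues that also express Penk, Pdyn, Tac1 or Drd2, had 0 calls, and their summed intensity was 886 to 4435 in EPO-HI, 893 to 1180 in VEH-HI and 938 to 2703 in VEH-Sham. The 5 thalamus genes and the 5 genes of midbrain dopamine neurons had 0 calls in VEH-HI against VEH-Sham, at medians of -0.12 and -0.17, or -0.12 and -0.29 against VEH-Sham 5 alone. The 3 tested oligodendrocyte genes also had 0 calls, at a median of -0.12, or -0.41 against VEH-Sham 5 alone.

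Among the 10 injured arrays, which share 1 array set, the level of each of the 8 genes was set against a glial score, the mean z-score of the 14 glial genes. The brightest probe set of Drd1 was lower where the score was higher. Its Pearson's r was -0.791 (permutation p = 0.00358, adjusted over the 8 genes p = 0.0286). Its Spearman's rho was -0.818 (permutation p = 0.00616, adjusted p = 0.0493). No correlation was run for the dimmer Drd1 probe set. Among the VEH-HI arrays its log2 level was highest in VEH-HI 7 (6.855, score 0.564) and lowest in VEH-HI 8 (6.003, score 0.027). The correlation was not run over all genes, so the share of all genes that follow the score as closely was not obtained. The permutations exchanged arrays across the 2 injured groups, so a difference between the groups can enter these p-values. Within groups r was -0.581 in EPO-HI and -0.923 in VEH-HI, on 5 arrays each and with no test. Without the 2 arrays farthest from the median score, VEH-HI 6 and EPO-HI 13, r was -0.646. The adjusted permutation p was above 0.05 when any of VEH-HI 6 (0.19), VEH-HI 7 (0.0553), EPO-HI 14 (0.0687) or EPO-HI 15 (0.0681) was left out, and with array medians made equal (0.082).

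The other 7 genes had r between -0.638 for Pde10a and -0.117 for Tac1, and none passed after adjustment. For Pde10a the permutation p was 0.0458 (adjusted p = 0.183), and r was -0.018 without the 2 farthest arrays, so the relation rested on those arrays. Rgs9 had a rho of -0.721 (permutation p = 0.0237, adjusted p = 0.0948). Ppp1r1b had r = -0.476 (permutation p = 0.163).

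**Figure D5:**
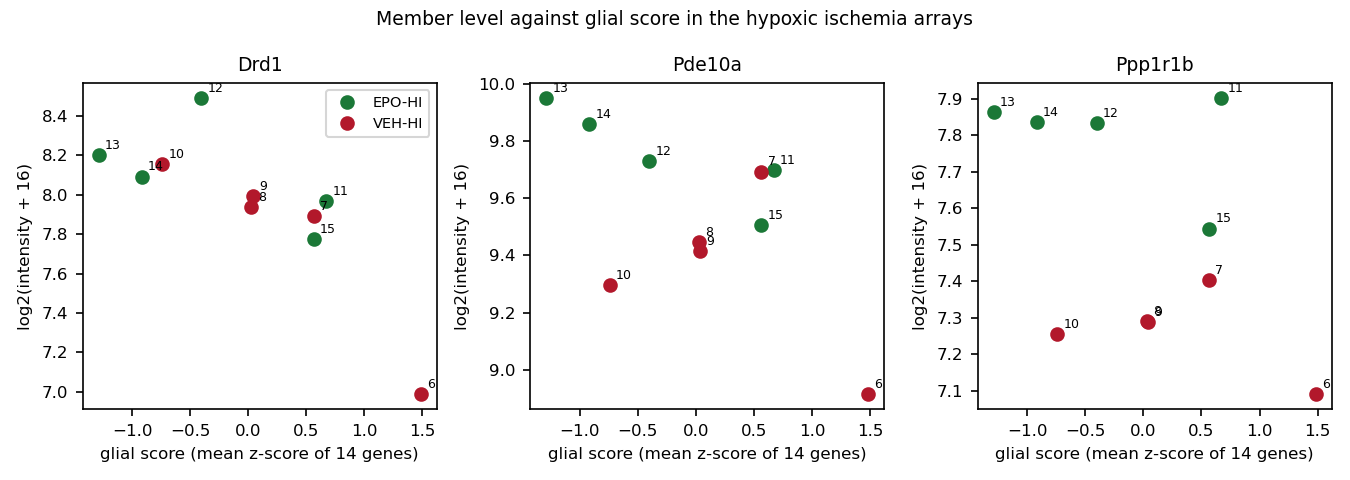
Log2 level of Drd1, Pde10a and Ppp1r1b (vertical) against the glial score (horizontal, mean z-score of 14 genes) in the 10 hypoxic ischemia arrays, EPO-HI in green and VEH-HI in red, with replicate numbers. VEH-HI 6 has the highest score (1.48) and the lowest level of all 3 genes, and every EPO-HI array lies above every VEH-HI array for Ppp1r1b.

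After the group means were taken out, the 8 genes varied together only loosely over the 14 arrays other than VEH-Sham 5. The 28 pairs had a median r of 0.088, and 20 lay above 0. The closest pair was Drd1 and Pdyn of the direct pathway, at 0.529, the receptor pair Drd1 and Drd2 was at -0.025, and the lowest pair, Pdyn and Drd2, was at -0.258. The 10 other genes most like the mean profile of the 8 were Tenm3, Ica1l, Tex2, Clip1, Aff3, Myo5b, Klhl2, Ccdc112, Sik2 and Efna3, with r of 0.85 to 0.882. They were picked as the highest of all other tested genes, with no test, and their profiles share the arrays and the array scaling with the 8 genes. The 8 genes themselves had a median r of only 0.455 with the mean profile.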

How the data were processed

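Total RNA of mouse forebrain was measured on 15 arrays in 3 groups of 5. The authors deposited 1 linear intensity for every probe set on every array, and the values themselves show that each array had been scaled to a trimmed mean of 150.0 (2% off each end). The sources used here name neither the scanner nor the summary software. Probe sets were named from a platform annotation, with 34945 of 45037 having 1 symbol, and gene numbers of 34741 matched a mouse gene table (GRCm38.p6), which changed 0 symbols. The 64 control probe sets were left out.

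Intensities were converted to log2(intensity + 16), and the brightest 60% by mean level (27022 probe sets, mean log2 of at least 5.46) entered 1 model with 3 group means in limma 3.58.1 under R 4.3.3 (lmFit, eBayes with trend). Tests were two-sided with Benjamini-Hochberg adjustment over all tested probe sets and a threshold of 0.05. For each of 13168 genes the brightest tested probe set that carries 1 symbol stood for the gene. Sorted array medians were split at their widest gap to give the array sets. Pathway pairs used exact permutation tests (252 splits), and glial correlations 100000 permutations, in Python 3.11.15 with scipy 1.17.1. Figures were drawn with matplotlib 3.10.9.

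The members and lists were chosen with earlier results of these data known. Named were all members, of each other list the 4 genes with the smallest p in each of 2 comparisons, and the 10 genes whose profile was most like the members'. The remaining genes that passed in the list of other striatal genes, and the neuron markers (those that passed and the other interneuron genes), were named after their values were seen. Other scalings, pseudocounts of 1 and 64, no filter, the highest 40% of probe sets, no trend, array weights, the array set as a block, set B alone, the compared groups alone and each array left out were tried. The fit was tested on simulated data.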

Additional observations from a re-analysis of the deposited data

Results flagged for a closer look

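In 2 of the 48 groups of 5 arrays checked (16 probe sets in 3 groups), 1 array stood apart from the other 4. Chance alone puts about 1 in 20 such groups in this position.

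The Ppp1r1b value of EPO-HI 15 was 7.54 on the log2 scale (intensity 171), the lowest of the EPO-HI arrays, with a gap to the next array of 0.806 of the group's range. It still lay above every VEH-HI array.

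The Drd1 value of VEH-HI 6 (probe set 1456051_at) was 6.99 on the log2 scale (intensity 111), the lowest of the VEH-HI arrays, with a gap of 0.772 of the group's range. The same array had the highest glial score, 1.48.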

How the results depend on the processing

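No paired analysis was possible because replicates are numbered 1 to 15 across the groups and no 2 groups share a number. Array scaling, the array set and single arrays moved the results most. The alternatives for the 2 other gene lists were chosen after seeing the data.

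In VEH-HI against VEH-Sham the count of the 8 genes that passed, 4, was 2 with equal array medians, 0 with the array set as a block and 0 with set B alone, and 2 to 4 without each array in turn (2 without VEH-Sham 1 or VEH-Sham 4, and 3 without VEH-Sham 2 or 3 or VEH-HI 6, 7, 9 or 10). The 8 other alternatives gave 3 or 4. In EPO-HI against VEH-HI it was 0 in every alternative run. In EPO-HI against VEH-Sham the count of 3 was 1 with equal medians, 1 without the trend, 1 with the 2 groups alone, 0 with the block, 0 with set B alone and 0 to 3 without each array. Genes correlated with the glial score numbered 1, but 0 with equal medians and 0 to 2 without each array, the second being Pde10a without VEH-HI 10 (r = -0.798, adjusted p = 0.04). No pathway pair passed in any alternative. The other striatal genes, at 11 calls, had 0 with the block, 0 with set B alone and 3 with equal medians, and 14 without VEH-Sham 5. The activity-regulated genes, at 4, had 0, 0, 7 and 6.

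Several differences turned in sign, and the cause was not tested. Most had not passed in the main fit. Exceptions were Tac1 (-0.43 in VEH-HI over VEH-Sham and -0.40 in EPO-HI over VEH-Sham) and Pde10a (-0.57 in EPO-HI over VEH-Sham). These turned with the block and with set B alone, where the sham value rests on VEH-Sham 5. In VEH-HI over VEH-Sham, equal medians gave 0.16 for Drd1, 0.17 for Pdyn and 0.17 for Penk, quantile normalization gave 0.20 for Pdyn, and the block and set B alone gave 0.17 for Tac1. In EPO-HI over VEH-HI, array weights gave -0.0019 for Tac1 and 0.0093 for Rgs9, and equal medians gave 0.02 for Rgs9. In EPO-HI over VEH-Sham, the block and set B alone gave -0.0012 for Drd1, 0.19 for Tac1, 0.23 for Ppp1r1b and 0.02 for Pde10a, equal medians gave 0.06 for Drd2 and 0.22 for Ppp1r1b, and quantile normalization gave 0.0051 for Drd2. Drd1 minus Drd2 in VEH-HI over VEH-Sham was -0.08 with quantile normalization and -0.05 with the mean of all probe sets, and Pdyn minus Penk in EPO-HI over VEH-HI was 0.03 with a pseudocount of 1.

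Without each array in turn, the differences that turned at least once ranged as follows. In VEH-HI over VEH-Sham, Drd1 lay at -0.23 to 0.07, Pdyn at -0.21 to 0.10 and Pdyn minus Penk at -0.02 to 0.24. In EPO-HI over VEH-HI, Drd2 lay at -0.07 to 0.13, Rgs9 at -0.11 to 0.05, Tac1 at -0.02 to 0.08 and Pdyn minus Penk at -0.19 to 0.04. In EPO-HI over VEH-Sham, Pdyn lay at -0.01 to 0.26. Correlations with the glial score that turned ranged over -0.387 to 0.354 for Drd2, -0.35 to 0.009 for Penk and -0.266 to 0.234 for Tac1. Drd1, with the called correlation, kept r of -0.831 to -0.661.

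Set A holds sham arrays alone, so the injury values rest on VEH-Sham 5 once the sets are separated. Pdyn, Drd2 and the dimmer probe sets lie close to the lower end of the tested signal, which limits them. Independence of the samples is not given in the labels.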
